A study of Mus musculus with 6 samples.

Results

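Genes for tubulins, kinesin motors and microtubule-associated proteins were followed in mouse melanoma cells treated with fenofibrate and in control cells. The set holds the protein-coding genes whose symbols begin with Tuba, Tubb, Tubg, Kif or Kifc followed by a number, together with 12 named genes for microtubule-associated proteins (MAPs), end-binding proteins and stathmins. This gave 72 of the 54838 genes in the table, namely 17 tubulins, 14 kinesins used in mitosis, 15 kinesins used mainly in transport, 14 other kinesin symbols and the 12 MAP and related genes. One of the other kinesin symbols, Kif1bp, encodes a protein that binds kinesins and is not itself a motor.

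Bulk RNA sequencing of mRNA-enriched RNA compared B16F10 cells given fenofibrate at 50 µM (n = 3 libraries) with control B16F10 cells (n = 3), described as biological triplicates. B16F10 is a pigmented line from a C57BL/6 mouse melanoma, and fenofibrate is a lipid-lowering drug whose active form activates the nuclear receptor PPARα. The title of the series names a signalling axis of PTPN14, MARK and Hippo. The vehicle, the length of treatment and the number of separate cultures are not given in the sources used here. The cell line field of the labels gives a different name, from B16F10 to B16F15, to each library, and if that is meant as written, line and treatment cannot be told apart. Libraries held 13540038 to 14710856 counts. At 95% confidence a count of 0 allows an expected count of up to about 3. That equals 0.204 to 0.222 CPM (counts relative to the library total), which covers counting error only. The 7 melanocyte markers summed to between 26493 and 28170 normalised CPM with fenofibrate and between 20917 and 22127 in control. Of 6 neuronal markers, Snap25, Nefl and Nefm were at 0 in every library, and all 6 together reached at most 1.43 normalised CPM with fenofibrate and 1.19 in control. Leukocyte markers summed to between 4.60 and 7.17 normalised CPM with fenofibrate and between 2.23 and 3.56 in control, most of it Cd68. Cd68 alone had 6.19, 3.19 and 4.37 normalised CPM with fenofibrate and 2.02, 3.28 and 1.89 in control. Its groups overlapped, and it was higher with fenofibrate by edgeR's quasi-likelihood test (adjusted p = 0.0489). The part of the leukocyte markers in the results was not tested. In bulk RNA, fewer cells of a kind and less RNA per cell cannot be told apart.

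Microtubules are hollow polymers of α- and β-tubulin dimers, and γ-tubulin seeds their growth. Vertebrates have several genes for each tubulin, called isotypes, whose products mix in one polymer. Kinesins are motors that use ATP to walk along microtubules or to take them apart: some build the mitotic spindle and the cleavage site of dividing cells, others carry organelles and vesicles. MAPs bind along the polymer and stabilise it, end-binding proteins track its growing tips, and stathmins hold free tubulin. MARK kinases are named after their action on MAPs: phosphorylation of tau, Map2 and Map4 releases these proteins from microtubules. In melanocytes microtubule motors also move melanosomes, the pigment granules.

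The genes did not move as a block. All mitotic kinesins that passed the test were lower with fenofibrate, and most β-tubulin isotypes and all MAP genes that passed were higher. Of the transport kinesins 4 of 12 were called, near the 39.1% of all genes. Of the 72 genes, 58 had enough counts to be tested, and 29 of them were called by edgeR's quasi-likelihood test with a Benjamini-Hochberg threshold of 0.05, with 16 rising and 13 falling under fenofibrate. Of the 14 not tested, 7 were at 0 in all libraries and 7 had 4 to 48 counts over the 6 libraries. Over all 13629 genes tested, 39.1% were called, 19.5% higher and 19.5% lower. The fenofibrate and control libraries did not overlap for 39 of the 58 genes, 23 higher and 16 lower, where 53.3% of all genes tested did not overlap, 26.4% higher and 26.9% lower. The median log2 fold change was 0.01 for the 58 genes and -0.00 for all genes, and the median size of change was 0.26 on the log2 scale for the 58 genes and 0.25 for all genes. Of the 29 called genes 3 changed at least 2-fold, Kifc2, Kif26a and Tubb2a. Exons of 27 of the 72 genes overlap another annotated gene, over more than 10% of their bases in 11, and with no strand setting stated their counts can hold reads of that gene. With libraries scaled by their totals alone, the median of all genes moved to -0.06 and that of the 58 genes to -0.04.

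**Figure D1:**
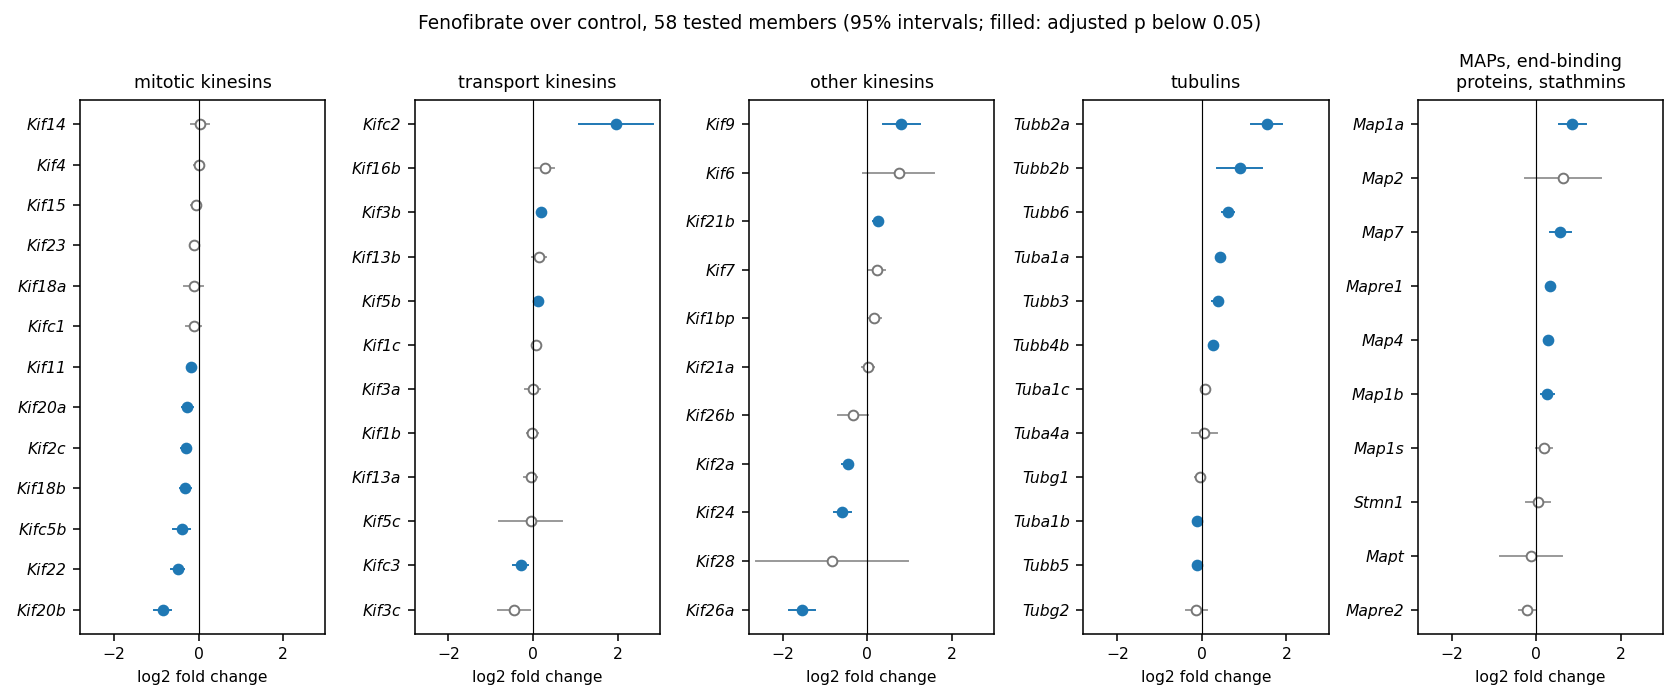
Log2 fold change (fenofibrate over control, horizontal axis) of each of the 58 tested genes, grouped by class, with 95% intervals from edgeR's quasi-likelihood test. The 7 called mitotic kinesins lie left of 0 and the 5 called MAP genes right of 0, while β-tubulins run from Tubb5 at -0.12 to Tubb2a at 1.53.

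Every mitotic kinesin that passed the test was lower in fenofibrate-treated cells. Of 13 tested, 7 fell and none rose, against 19.5% of all genes in each direction, and the class median was -0.17 on the log2 scale. The groups did not overlap for 9 of the 13, all of them lower. Summed over the class, levels were 1065, 1080 and 1135 normalised CPM with fenofibrate, against 1284, 1306 and 1265 in control. Kif2b, a depolymerising kinesin, was at 0 in all libraries.

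The largest fall in the class was that of Kif20b, a plus-end motor of the central spindle that is needed to complete cytokinesis (chromosome 19, 34922361 to 34975745, GRCm38). It had 67.4, 73.5 and 84.2 normalised CPM with fenofibrate, against 128, 142 and 135 in control. The highest fenofibrate library was well under the lowest control library, and the fall of 1.80-fold had an adjusted p of 0.000290 (log2 fold change -0.84, SE 0.08). Kif22, a chromokinesin that pushes chromosome arms toward the spindle equator (chromosome 7, 127027729 to 127042471), had 50.2, 47.6 and 53.1 normalised CPM with fenofibrate and 74.4, 70.6 and 67.8 in control. It was 1.41-fold lower, again with no overlap (log2 fold change -0.50 ± 0.06 SE, adjusted p = 0.000935).

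Kifc5b, a minus-end motor closely related to the spindle motor Kifc1, had 20.99, 24.4 and 23.6 normalised CPM with fenofibrate and 29.0, 30.2 and 31.9 in control, a 1.32-fold fall (adjusted p = 0.00785). Of its 50-base stretches 37.4% also occur in another gene, mainly Kifc1, so reads may be split between them. Kifc1 itself did not pass the test, at 39.3, 40.3 and 44.6 normalised CPM with fenofibrate and 44.2, 43.4 and 47.1 in control (adjusted p = 0.228). Kif18b, which shortens astral microtubules at their plus ends, had 48.6, 47.9 and 51.0 normalised CPM with fenofibrate and 61.2, 59.1 and 63.1 in control, a 1.24-fold fall. Kif2c, the depolymerase that frees wrongly attached kinetochores, had 67.9, 65.0 and 62.3 normalised CPM with fenofibrate and 80.6, 80.1 and 79.6 in control, 1.23-fold lower. Neither gene's groups overlapped.

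The remaining called members are the most abundant of the class per unit length. Kif11, the motor that slides spindle poles apart and the target of several spindle poisons, averaged 45.4 ± 0.813 FPKM (counts scaled by gene length and library total) with fenofibrate and 53.2 ± 2.09 in control (SD, n = 3 each). It had 220, 222 and 228 normalised CPM with fenofibrate and 257, 258 and 242 in control, a small but separated fall of 1.13-fold (log2 fold change -0.17 ± 0.04 SE, adjusted p = 0.0123). Kif20a, which carries the chromosomal passenger complex to the central spindle, had 146, 141 and 158 normalised CPM with fenofibrate and 183, 177 and 174 in control, 1.20-fold lower. Of its exon bases 29.3% overlap Cdc23, which was called lower as well at a log2 fold change of -0.18. With no strand setting stated, reads that fall in this overlap cannot be told apart between the pair.

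The 6 tested mitotic kinesins that were not called had log2 fold changes from -0.12 to 0.03 and adjusted p values from 0.141 to 0.873. Among them Kif4, a chromokinesin that orders the central spindle, stood at 102, 104 and 106 normalised CPM with fenofibrate and 103, 107 and 99.5 in control, with overlapping groups and a 95% interval from -0.10 to 0.12. Its estimate of 0.01 turned to -0.04 when libraries were scaled by their totals alone. Kif23, a subunit of the centralspindlin complex, had a 95% interval from -0.21 to 0.01. Kif14, Kif15 and Kif18a made up the rest with Kifc1.

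**Figure D2:**
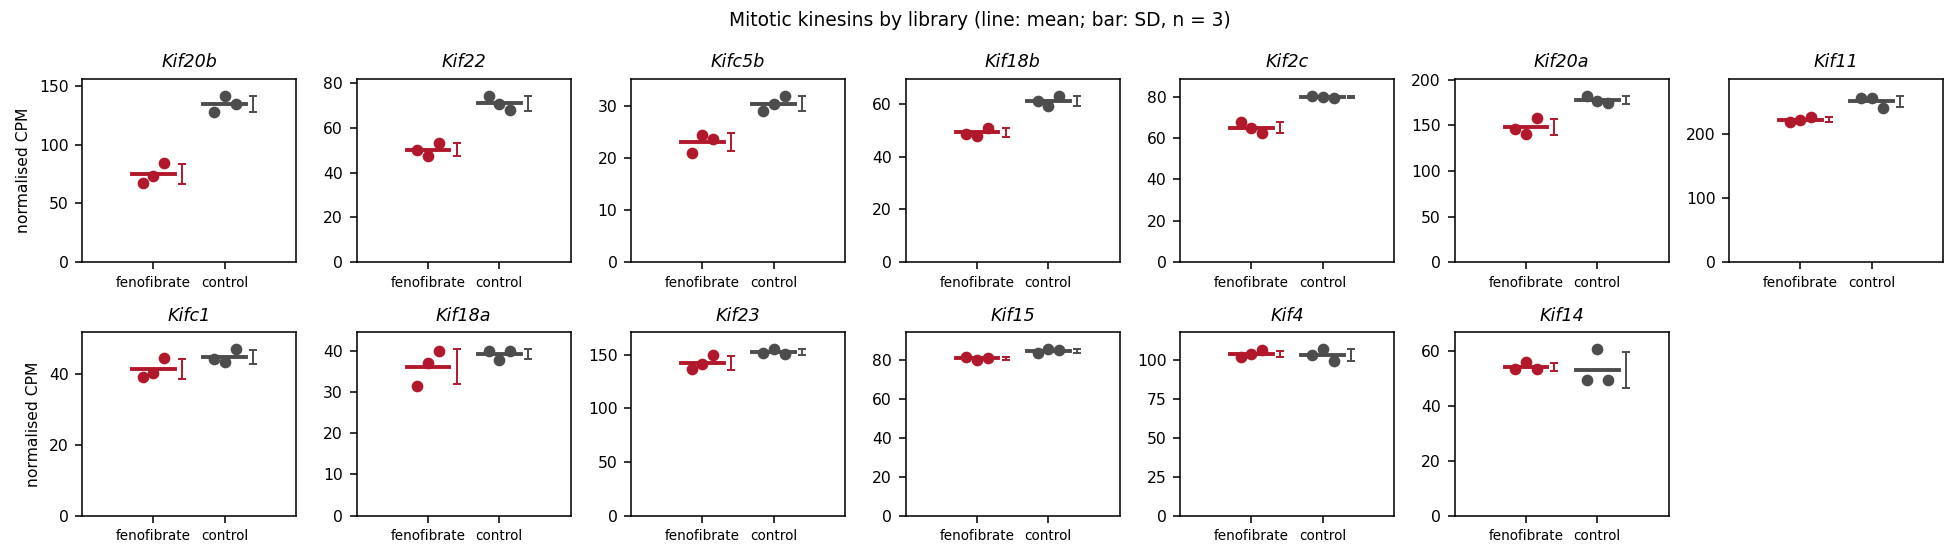
Normalised CPM (vertical axes, each starting at 0) of the 13 tested mitotic kinesins in each library, fenofibrate left and control right, with points for libraries, lines for the mean and bars for the SD (n = 3 each). Kif20b shows the widest gap, from 67.4 to 84.2 with fenofibrate and from 128 to 142 in control.

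Promoter sequences are shown for the mitotic kinesins with the largest falls and, beside them, for a transport kinesin and a tubulin that were higher. Genes expressed in late G2 and mitosis are known for a cell cycle element called CHR, read by the MuvB complexes, which often lies near the start of transcription and downstream of CCAAT boxes bound by NF-Y. Windows of 250 bases before to 50 bases after the start of each gene were taken from RefSeq for the build GRCm38.p6, and 55 of the 72 genes matched one. Each was searched on both strands for TTTGAA (CHR), for its variant TTTAAA and for CCAAT. The motifs do not overlap one another in their letters. Sequences run 5′ to 3′ on the gene's own strand in lower case, with CHR and CCAAT matches of either strand in capitals, so that TTCAAA and ATTGG are matches on the other strand. The windows of the 4 mitotic kinesins are chr19:34922108-34922407 on the plus strand for Kif20b, chr7:127042371-127042670 on the minus strand for Kif22, chr17:26916841-26917140 on the plus strand for Kifc5b and chr11:102925075-102925374 on the minus strand for Kif18b.
Kif20b: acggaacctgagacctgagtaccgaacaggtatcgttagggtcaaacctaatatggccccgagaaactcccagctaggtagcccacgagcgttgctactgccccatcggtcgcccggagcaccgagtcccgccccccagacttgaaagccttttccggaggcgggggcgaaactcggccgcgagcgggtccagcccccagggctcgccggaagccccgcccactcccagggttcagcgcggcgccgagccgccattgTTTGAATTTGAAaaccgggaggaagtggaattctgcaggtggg
Kif22: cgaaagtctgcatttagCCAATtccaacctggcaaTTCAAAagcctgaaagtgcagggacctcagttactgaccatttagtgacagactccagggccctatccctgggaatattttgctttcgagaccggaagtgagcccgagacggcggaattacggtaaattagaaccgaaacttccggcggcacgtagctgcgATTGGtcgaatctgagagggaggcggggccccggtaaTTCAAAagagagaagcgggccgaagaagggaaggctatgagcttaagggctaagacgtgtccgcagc
Kifc5b: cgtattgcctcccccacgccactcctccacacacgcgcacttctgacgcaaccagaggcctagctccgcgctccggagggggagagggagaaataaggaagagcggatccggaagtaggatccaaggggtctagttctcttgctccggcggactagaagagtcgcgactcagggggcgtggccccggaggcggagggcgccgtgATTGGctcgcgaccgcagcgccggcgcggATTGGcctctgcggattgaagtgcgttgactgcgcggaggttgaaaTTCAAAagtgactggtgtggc
Kif18b: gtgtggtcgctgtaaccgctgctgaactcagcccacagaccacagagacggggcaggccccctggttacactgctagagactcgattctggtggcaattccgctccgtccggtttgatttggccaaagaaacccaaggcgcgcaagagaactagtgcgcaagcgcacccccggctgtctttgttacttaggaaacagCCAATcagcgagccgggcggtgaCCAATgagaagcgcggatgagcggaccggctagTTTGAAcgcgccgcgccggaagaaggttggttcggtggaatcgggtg
The windows of Kif3b, at chr2:153291166-153291465 on the plus strand, and of Tubb2a, at chr13:34077959-34078258 on the minus strand, hold no CHR match.
Kif3b: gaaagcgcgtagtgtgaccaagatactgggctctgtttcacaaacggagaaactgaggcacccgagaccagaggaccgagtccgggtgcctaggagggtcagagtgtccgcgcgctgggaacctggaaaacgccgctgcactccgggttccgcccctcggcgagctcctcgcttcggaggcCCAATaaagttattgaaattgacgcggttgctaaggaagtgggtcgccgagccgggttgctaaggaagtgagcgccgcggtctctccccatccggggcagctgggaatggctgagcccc
Tubb2a: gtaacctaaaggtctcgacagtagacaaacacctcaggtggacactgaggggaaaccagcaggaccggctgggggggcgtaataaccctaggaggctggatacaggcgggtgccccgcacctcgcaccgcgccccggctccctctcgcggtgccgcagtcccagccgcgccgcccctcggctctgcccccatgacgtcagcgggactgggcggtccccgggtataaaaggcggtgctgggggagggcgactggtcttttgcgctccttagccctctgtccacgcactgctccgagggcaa

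The TTTGAA element was present in 11 of the 13 mitotic kinesin windows, or 84.6%, where 5878 of all 32851 windows (17.9%) held it. It was present in 0 of 10 transport kinesin windows, 2 of 10 windows of other kinesins, 2 of 14 tubulin windows and 1 of 8 MAP windows. Within the mitotic class it did not separate the genes that fell from those that were not called: 6 of 6 windows of the first kind and 5 of 6 of the second held it. Outside the mitotic class, Map7 and Tubb4b were called higher and held it, and the other genes called higher with a window did not. Kif26a, Kif24, Kif2a, Tubb5 and Tuba1b were called lower and did not hold it. In Kif20b a tandem pair begins 7 and 13 bases after the start base, in Kif18b the element begins 3 bases after it, and in Kif22 a match lies 17 bases before it. Kif4, which was not called, carries the element 19 bases after the start and Kifc1 carries it 1 base after the start. CCAAT boxes were in 9 of 13 mitotic kinesin windows and in 37.4% of all windows, and 8 of the 13 held both a CCAAT box and a CHR element or its variant, as did 10.7% of all windows. These are letter matches in a window and say nothing of binding.

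**Figure D3:**
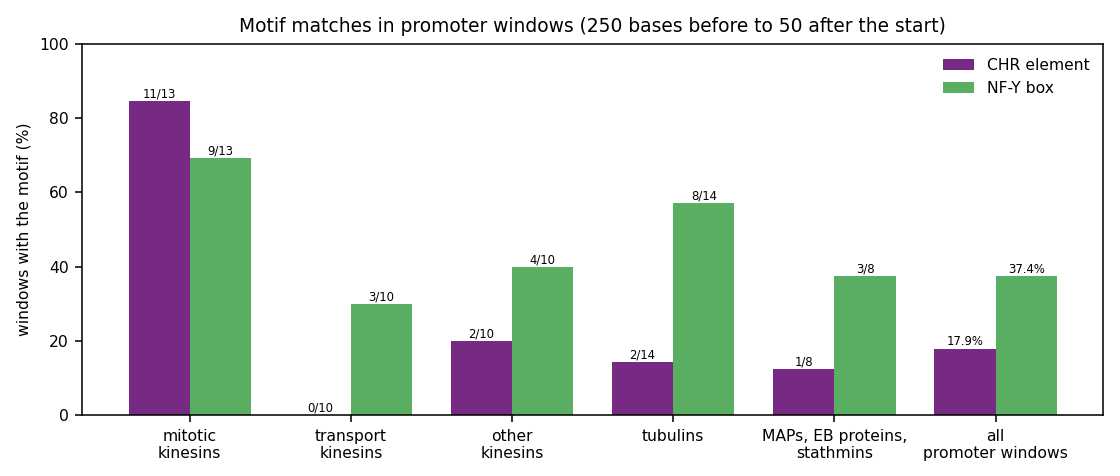
Share of promoter windows (vertical axis, percent) that hold the CHR element or a CCAAT box (labelled NF-Y box), by gene class and over all windows. The CHR bar of the mitotic kinesins stands at 84.6%, that of all windows at 17.9%, and that of the transport kinesins at 0.

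Tubulins moved by isotype. Of 12 tested genes 6 rose and 2 fell, where 19.5% of all genes were called in each direction, and every tested β-tubulin was called, 5 higher and 1 lower, with a median log2 fold change of 0.50. Of 4 tested α-tubulins 1 rose and 1 fell, and neither γ-tubulin gene was called. The rises were in the less abundant isotypes and the falls in the most abundant isotype of each family. Tuba3a and Tubb1, the second an isotype of platelets, were at 0 in all libraries, and Tuba3b, Tuba8 and Tubb4a had at most 12 counts over the 6 libraries.

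Tubb2a, an isotype best known from neurons (chromosome 13, 34074274 to 34078007), had 12.7, 10.7 and 10.9 normalised CPM with fenofibrate, against 4.11, 4.53 and 3.19 in control. The groups were far apart, and the rise was 2.89-fold, with a log2 fold change of 1.53 and an SE of 0.16 (adjusted p = 0.000337). Its neighbour and near copy Tubb2b had 2.94, 3.82 and 2.64 normalised CPM with fenofibrate and 1.44, 2.02 and 1.60 in control, 1.85-fold higher (adjusted p = 0.0191). Of their 50-base stretches 49.6% in Tubb2a and 36.9% in Tubb2b occur in another gene, mainly in each other, and the call of Tubb2b was lost with DESeq2 (adjusted p = 0.0666) and without fenofibrate replicate 2, control replicate 1 or control replicate 3 (adjusted p up to 0.0638).

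Tubb6, a minor isotype of most tissues, had 128, 118 and 122 normalised CPM with fenofibrate and 79.7, 74.8 and 85.5 in control, a rise of 1.53-fold (adjusted p = 0.000304). Tubb3, the isotype used as a marker of neurons and also made by many tumours, had 128, 131 and 117 normalised CPM with fenofibrate and 94.7, 94.8 and 99.4 in control, a log2 fold change of 0.38. The neuronal markers named above were at or near 0 in the same libraries. Tubb4b, a widespread isotype, had 420, 416 and 426 normalised CPM with fenofibrate and 353, 346 and 349 in control, 1.20-fold higher. Its reads may be shared with the pseudogene Tubb4b-ps1, which was called higher as well (log2 fold change 0.35).

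The most abundant isotypes went the other way by a small amount. Tubb5, the main β-tubulin of dividing cells, had 931, 947 and 936 normalised CPM with fenofibrate, against 1013, 1027 and 1029 in control. The groups lay close together but did not overlap, and the fall was 1.09-fold (log2 fold change -0.12 ± 0.03 SE, adjusted p = 0.0102). Tuba1b, the main α-tubulin, had 1210, 1265 and 1256 normalised CPM with fenofibrate and 1356, 1321 and 1377 in control, also a 1.09-fold fall (adjusted p = 0.0223), a call lost with DESeq2 (adjusted p = 0.0567) and without fenofibrate replicate 1, control replicate 1 or control replicate 3 (adjusted p = 0.0622, 0.0642 and 0.0756).

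Tuba1a, the α-tubulin of developing neurons, had 352, 344 and 351 normalised CPM with fenofibrate and 259, 250 and 268 in control. It rose 1.35-fold with a tight spread (log2 fold change 0.43 ± 0.04 SE, adjusted p = 0.000170). Tuba1c, a further ubiquitous α-tubulin, had 978, 950 and 947 normalised CPM with fenofibrate and 910, 897 and 935 in control and was not called (95% interval -0.01 to 0.14, adjusted p = 0.131). These α-tubulin genes share much sequence: 72.9% of the 50-base stretches of Tuba1a, 66.7% of Tuba1b and 52.7% of Tuba1c occur in another gene, so the split of reads between them is uncertain. Tubg1, the main γ-tubulin of the centrosome, had 94.5, 103 and 102 normalised CPM with fenofibrate and 104, 103 and 103 in control, with overlapping groups.

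As a share of all β-tubulin FPKM, which compares genes per unit of length, Tubb5 made up 38.3% ± 0.470 with fenofibrate and 46.9% ± 0.497 in control (SD, n = 3 each). Tubb4b was the next, at 35.3% ± 0.529 with fenofibrate and 32.9% ± 0.418 in control. The share of Tubb6 was 14.2% ± 0.536 with fenofibrate and 10.4% ± 0.591 in control, and that of Tubb3 10.5% ± 0.584 with fenofibrate and 9.09% ± 0.163 in control. Tubb2a took 1.44% ± 0.130 with fenofibrate and 0.561% ± 0.103 in control. Among α-tubulins Tuba1b held 48.7% ± 0.987 with fenofibrate and 53.9% ± 0.196 in control, and Tuba1a 17.2% ± 0.253 with fenofibrate and 13.0% ± 0.146 in control. Tuba1c, which was not called as a gene, held 33.5% ± 0.730 with fenofibrate and 32.6% ± 0.143 in control. Shares were tested where their mean over all libraries was at least 1%. None of these 8 overlapped between groups, and each had an exact two-sided permutation p of 0.1, the smallest that 3 against 3 libraries allow. Tubb2a passed the 1% limit only through its fenofibrate libraries, where it was high, and was under 1% in every control library. Shares within a family add up to the whole, so the 8 results are not independent of one another. Summed β-tubulin was 481 ± 2.65 FPKM with fenofibrate and 445 ± 3.31 in control, and summed α-tubulin 1102 ± 6.06 with fenofibrate and 1124 ± 23.1 in control. In normalised CPM the α-tubulin sum went the other way, at 2593 ± 6.03 with fenofibrate and 2565 ± 60.1 in control, so no direction is read from it. The deposited FPKM rest on a gene length of 4990 bases for Tubb5, whose merged exons span 3327, and of 1757 bases for Tubb6, whose merged exons span 2437. With merged lengths Tubb5 made up 46.3% with fenofibrate and 54.7% in control, Tubb4b 33.1% with fenofibrate and 29.8% in control, and the gain of Tubb6 was 2.42 percentage points in place of 3.80.

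**Figure D4:**
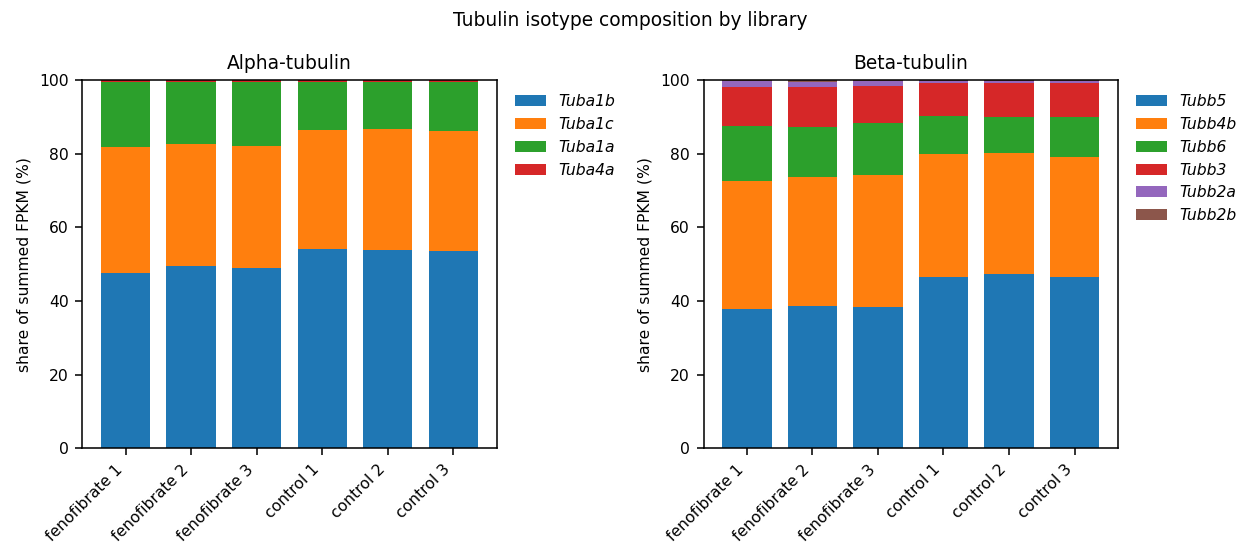
Share of the summed α-tubulin and β-tubulin FPKM taken by each isotype (vertical axis, percent) in each library, fenofibrate left and control right. Tubb5 drops to 38.3% with fenofibrate, against 46.9% in control, while Tubb6 and Tuba1a take larger shares.

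Of the MAPs, end-binding proteins and stathmins, 10 were tested and 5 rose, with none called lower, where 19.5% of all genes were called in each direction, and the class median was 0.27. Map1a, a large MAP of mature neurons (chromosome 2, 121289600 to 121310832), had 23.3, 24.6 and 17.6 normalised CPM with fenofibrate, against 11.3, 12.1 and 12.8 in control. The lowest fenofibrate library was above the highest control library, and Map1a rose 1.81-fold (log2 fold change 0.85 ± 0.14 SE, adjusted p = 0.00239). Map7, which recruits conventional kinesin to microtubules, had 15.8, 19.8 and 17.6 normalised CPM with fenofibrate and 12.4, 11.9 and 11.5 in control, 1.48-fold higher. Mapre1, the end-binding protein EB1, had 328, 335 and 331 normalised CPM with fenofibrate and 269, 266 and 253 in control, 1.26-fold higher (adjusted p = 0.000453). It was among the most abundant of the class per unit length, at 40.0 ± 0.504 FPKM with fenofibrate and 33.0 ± 1.17 in control.

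Map1b, a MAP of growing neurites, had 108, 103 and 105 normalised CPM with fenofibrate and 91.0, 91.4 and 80.3 in control, 1.20-fold higher, a call lost with limma on log2(FPKM + 0.5) at an adjusted p of 0.0664. Stmn1, the stathmin of dividing cells, had 98.6, 134 and 97.8 normalised CPM with fenofibrate and 103, 108 and 110 in control. Its groups overlapped, with fenofibrate replicate 2 the highest of all libraries, and without that library the estimate of 0.04 turned to -0.12. Mapre2, the end-binding protein EB2, was not called, with 28.2, 29.5 and 29.2 normalised CPM with fenofibrate and 37.0, 31.9 and 32.2 in control (adjusted p = 0.0611). The neuronal stathmin genes Stmn2 and Stmn3 were at 0 in all libraries.

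Substrates of the MARK kinases did not share a direction that passed the test. Map4, the MAP of most non-neuronal cells, had 155, 147 and 149 normalised CPM with fenofibrate and 120, 128 and 123 in control. It rose 1.21-fold with separated groups (log2 fold change 0.28 ± 0.05 SE, adjusted p = 0.00243). Map2, the MAP of dendrites, had 45.1, 47.2 and 49.9 normalised CPM with fenofibrate and 40.3, 39.6 and 11.6 in control. The groups did not overlap, control replicate 3 stood far below every other library, and Map2 was not called (log2 fold change 0.63 ± 0.39 SE, adjusted p = 0.230). Without that library the estimate was 0.25 with an adjusted p of 0.0414.

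Mapt, the gene for tau, had 29.7, 27.8 and 23.6 normalised CPM with fenofibrate and 35.2, 14.8 and 38.8 in control. Here control replicate 2 was the low library, and the gene was not called (log2 fold change -0.13 ± 0.31 SE, adjusted p = 0.771). Without that library the estimate was -0.45 with an adjusted p of 0.0263, and without control replicate 3 it was 0.12. Kif13b, a transport kinesin that MARK2 phosphorylates, had 28.2, 28.0 and 28.3 normalised CPM with fenofibrate and 26.1, 26.5 and 24.2 in control. Its groups did not overlap, but its estimate of 0.14 had a 95% interval from -0.02 to 0.30. Of the kinases themselves, Mark4 was called lower, with 21.2, 23.6 and 35.4 normalised CPM with fenofibrate and 46.3, 41.8 and 48.0 in control (log2 fold change -0.76 ± 0.18 SE, adjusted p = 0.0126). Mark2 and Mark3 were not called, with adjusted p values of 0.272 and 0.317, and Mark1 was at 0 in all libraries.

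**Figure D5:**
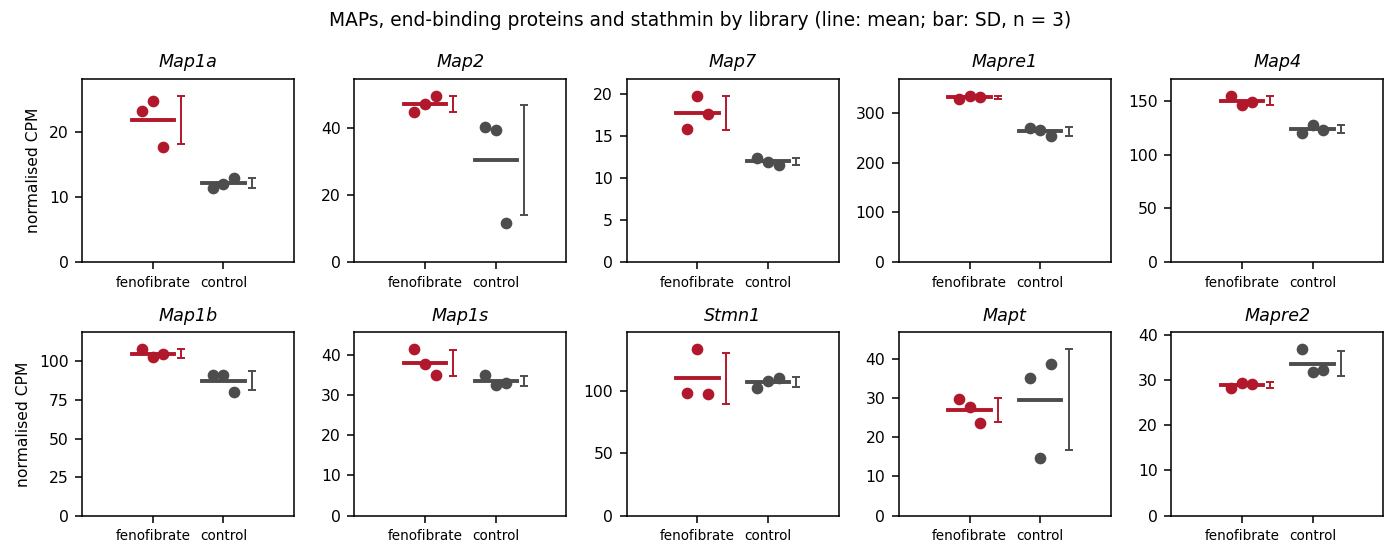
Normalised CPM (vertical axes, each starting at 0) of the 10 tested MAP, end-binding and stathmin genes in each library, fenofibrate left and control right, with points for libraries, lines for the mean and bars for the SD (n = 3 each). Map2 has a control library at 11.6 and Mapt a control library at 14.8, each under all other libraries.

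Of 12 tested transport kinesins, 3 rose, 1 fell and 8 were not called, where 39.1% of all genes were called, and the class median was 0.04, which turned to -0.02 with libraries scaled by their totals alone. Kif5b, the conventional kinesin heavy chain that moves mitochondria and many vesicles, was the most abundant kinesin per unit length at 65.4 ± 0.905 FPKM with fenofibrate and 62.1 ± 0.991 in control. It had 677, 673 and 692 normalised CPM with fenofibrate and 620, 631 and 614 in control. The groups were narrow and separated at a rise of 1.09-fold (adjusted p = 0.0128), which did not pass when libraries were scaled by their totals alone (adjusted p = 0.0904) or in either limma fit (0.0912 and 0.0940), with log2 fold changes of 0.0755, 0.0749 and 0.0754 in place of 0.13.

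Kif3b, a subunit of the heterotrimeric kinesin that builds cilia and carries cargo, had 102, 95.5 and 97.9 normalised CPM with fenofibrate and 84.3, 86.1 and 86.5 in control, a rise of 1.15-fold. Its partner subunit Kif3a was not called, with 85.2, 96.0 and 80.0 normalised CPM with fenofibrate and 83.6, 88.6 and 89.9 in control (95% interval -0.18 to 0.17). The largest fold of all 29 calls was at a very low level: Kifc2, a minus-end motor known from neurons, had 20, 28 and 23 counts with fenofibrate, against 10, 4 and 4 in control. That is 3.90-fold higher with a 95% interval from 2.12-fold to 7.19-fold (adjusted p = 0.00536). Kifc2 had enough counts to be tested only through its fenofibrate libraries, where it was high, so the fold depends in part on that filter. A neighbouring gene with many more counts, Cyhr1, overlaps 4.15% of its exon bases and was itself at a log2 fold change of -0.15.

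Kifc3, a minus-end motor of cell junctions, fell 1.22-fold, with 45.1, 53.7 and 51.7 normalised CPM with fenofibrate and 60.6, 62.8 and 60.8 in control. Its call was lost without control replicate 2 (adjusted p = 0.0560). The 8 genes not called ran from -0.45 for Kif3c to 0.28 for Kif16b on the log2 scale, with adjusted p values from 0.0514 to 0.965, and 40.7% of the exon bases of Kif3c overlap 1110002L01Rik or Gm48512. Kif13a, which brings recycling endosomes and pigment enzymes toward melanosomes, had 52.3, 53.3 and 58.5 normalised CPM with fenofibrate and 59.1, 57.7 and 53.9 in control, and its groups overlapped. Kif1a, a carrier of synaptic vesicle precursors, was at 0 in all libraries, and Kif5a and Kif17, also known from neurons, had too few counts to test.

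The other kinesins held the largest fall among the 29 called genes, beside 2 further falls and 2 rises in 11 tested, where 39.1% of all genes were called. Kif26a, an atypical kinesin without motor activity that restrains growth factor signalling in the enteric neurons of mice (chromosome 12, 112146208 to 112181747), had 5.28, 6.94 and 5.35 normalised CPM with fenofibrate, against 16.9, 18.1 and 16.1 in control. The groups were far apart, and the fall of 2.90-fold had an adjusted p of 0.000156 (log2 fold change -1.54, SE 0.13). Kif24, a depolymerase at the mother centriole that restrains cilium growth, had 17.9, 20.1 and 21.5 normalised CPM with fenofibrate and 29.8, 31.0 and 29.4 in control, 1.52-fold lower. Kif2a, a depolymerase of spindle poles and growing axons, had 63.9, 69.6 and 70.7 normalised CPM with fenofibrate and 92.1, 96.2 and 93.6 in control, 1.38-fold lower. It shares 19.2% of its exon bases with Dimt1, whose log2 fold change was -0.05.

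Higher with fenofibrate were Kif9, a kinesin of motile cilia and sperm tails, and Kif21b, a regulator of microtubule growth in neurons and T cells. Kif9 had 8.08, 8.50 and 7.50 normalised CPM with fenofibrate and 3.31, 5.51 and 4.93 in control, a rise of 1.75-fold (adjusted p = 0.0134). Of the 6 markers of ciliated and sperm cells, Dnah5, Prm1, Prm2 and Tnp1 were at 0 in all libraries. All 6 summed to between 9.10 and 11.7 normalised CPM with fenofibrate and between 7.95 and 9.08 in control, nearly all of it Ccdc39, a gene for a protein of motile cilia, at 10.7, 9.77 and 7.99 with fenofibrate and 8.57, 7.18 and 7.83 in control. Neither Ccdc39 nor Foxj1, the other marker detected, was called (adjusted p = 0.177 and 0.206), and their part in the result for Kif9 was not tested. Kif21b had 166, 161 and 153 normalised CPM with fenofibrate and 136, 130 and 137 in control, a rise of 1.19-fold. Its relative Kif21a was not called, with 98.7, 92.8 and 100 normalised CPM with fenofibrate and 102, 93.1 and 93.7 in control, an estimate of 0.02 that turned to -0.04 with libraries scaled by their totals alone. The 6 genes of this class not called had log2 fold changes from -0.83 to 0.74, Kif12 was at 0 in all libraries, and Kif19a and Kif27 had too few counts to test.

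The genes that work beside these were followed through lists written from known roles. Of 20 other mitotic genes, which are regulators of the spindle and of its checkpoint, 10 fell and 1 rose, with a median of -0.15, where 19.5% of all genes were called in each direction. The checkpoint kinase gene Ttk was 1.56-fold lower, the mitotic kinase gene Plk1 1.47-fold lower and the checkpoint gene Bub1b 1.39-fold lower, whereas the mitotic cyclin gene Ccnb2 was 1.18-fold higher. Of 16 genes for the γ-tubulin ring and augmin complexes, which seed microtubules, 4 fell, near the 19.5% of all genes called lower, among them Tubgcp5 (1.36-fold), Haus4 (1.31-fold) and Nedd1 (1.21-fold), and none was called higher. Of 7 genes for severing enzymes 3 fell, where 19.5% of all genes were called lower. Fignl1 among them had 30.4, 16.4 and 15.8 normalised CPM with fenofibrate and 75.2, 27.1 and 77.3 in control, so its groups overlapped, control replicate 2 lying under fenofibrate replicate 1.

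Dynein, the main minus-end motor, works with the adaptor complex dynactin. Of 23 tested dynein and dynactin genes 8 rose, 1 fell and 14 were not called, where 19.5% of all genes were called in each direction. The share called in either direction was that of all genes (39.1%). Dync1i1, an intermediate chain of cytoplasmic dynein that is best known from neurons, had 7.93, 5.31 and 7.99 normalised CPM with fenofibrate, against 1.73, 0.907 and 0.798 in control. This 6.15-fold rise (log2 fold change 2.62 ± 0.31 SE, adjusted p = 0.000590) was larger than any among the kinesins and tubulins. The light chain gene Dynlt3 rose 1.35-fold and the dynein regulator gene Ndel1 1.40-fold, while its relative Nde1 fell 1.18-fold. Of 10 tested genes for kinesin light chains and cargo adaptors 5 rose and none was called lower, where 19.5% of all genes were called in each direction. Among them Klc4 rose by 1.34-fold, Mapk8ip3 by 1.28-fold and Mapk8ip1 by 0.37 on the log2 scale.

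Genes that fold or modify tubulin were called in both directions. Of 21 genes for the CCT chaperonin, prefoldin and tubulin cofactors 7 fell and 4 rose, or 52.4% called, where 39.1% of all genes were called. Among them were Cct6a (log2 fold change -0.37), Cct4 (-0.35) and the cofactor gene Tbce (0.50). Of 16 tested genes for tubulin modification 3 rose and 4 fell, or 43.8% called, near the share of all genes. The glycylase gene Ttll3 rose 1.80-fold and the deacetylase gene Hdac6 1.33-fold, whereas Ttll4 fell 1.48-fold. The vasohibins, which remove the last tyrosine of α-tubulin, fell 2.22-fold for Vash1 and 3.14-fold for Vash2 at low levels, while their binding partner Svbp rose 1.49-fold. Vash2 had 11, 5 and 2 counts with fenofibrate and 12, 26 and 20 in control (adjusted p = 0.0447). It had enough counts to be tested only through the control libraries, where it was high. Of 21 other microtubule-binding proteins 5 rose and 5 fell, or 47.6% called. Map6, which makes microtubules resist cold, was 1.93-fold higher and Map7d2 1.70-fold higher. The plus-end stabiliser genes Clasp2 and Clasp1 were 1.48-fold and 1.40-fold lower. Over all 137 tested genes of these lists 26 were called higher and 35 lower, or 44.5% called, where 39.1% of all genes were called.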

How the data were processed

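RNA-seq values of 3 fenofibrate and 3 control libraries were used, grouped by sample title. Raw counts per gene and FPKM were deposited by the authors in 1 table. The submitters' processing notes name HISAT2 2.0.4, StringTie 1.3.0 and GRCm39 without their roles, and the counting tool and strand setting are not given in the sources used here. The coordinates match GRCm38, since 98.7% of the IDs shared with GENCODE M21 carry its start and end, and GRCm38 is used throughout. The deposited FPKM equals the count over 1 length per gene and the library total. That length was 0.646 to 2.20 times the merged exon length in 65 members with counts, so FPKM comparisons between genes carry that uncertainty.

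Counts were tested in R 4.3.3 with edgeR 4.0.16 (filterByExpr, TMM, glmQLFit and glmQLFTest, no covariate), over 13629 genes, with Benjamini-Hochberg adjustment and a threshold of 0.05. Normalised CPM use TMM-scaled totals. Intervals are 95% intervals of the same test, and p-values measure the spread between the libraries only. Isotype shares were compared by exact two-sided permutation over libraries (scipy 1.17.1). The fit was also run on simulated data with known fold changes, which does not measure its error rate in the real data. Overlaps and shared 50-base stretches were taken from GENCODE M21 transcripts, and promoter windows from RefSeq (GRCm38.p6).

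The members and lists were chosen with earlier results of these data known. Named in each class were the called genes with the greatest fold in either direction (at most 5) and the 3 genes with the highest mean FPKM. The MARK substrates Map2, Map4, Mapt and Kif13b were named as well. From each further list, genes were named among the 3 called with the greatest fold either way, and not all of these are given. Tubb4b, Kifc1, Kif23, Kif13a, Mapre2, Tubg1 and a few others were added after their values were seen. Alternatives were DESeq2 1.42.0, RLE scaling, library totals only, no filter beyond a count above 0, limma 3.58.1 on log2(FPKM + 0.5) and log2(FPKM + 0.1) with a mean FPKM of 0.5 or more, a replicate block and leaving out each library.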

Additional observations from a re-analysis of the deposited data

How the results depend on the processing

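Of the 29 called members 23 kept their call and direction in all 13 alternative settings. Kif5b, Tuba1b, Kifc3, Tubb2b and Map1b lost it in at least 1 setting, and Kifc2 lay below the filter of limma. Map2, Mapt, Kif3c, Mapre2, Kif23, Kif1bp and Kif16b gained a call in at least 1. The 7 falls and 0 rises among mitotic kinesins held in all fits without 1 library. For transport kinesins limma with either pseudocount called 2 genes in place of 4 and 1 higher in place of 3, DESeq2 and library totals only gave 2 lower in place of 1, and leaving out a library gave 0 to 2. Tubulins called lower numbered 1 with DESeq2 and 1 to 2 when a library was left out, in place of 2. MAP genes called lower numbered 1 with library totals only and 0 to 1 when a library was left out, in place of 0. The replicate numbers did not pair the libraries (correlations of same-numbered deviations 0.0278, 0.0127 and -0.0035), and with the replicate block 1 tubulin was called lower and Kif5b was not called (adjusted p = 0.0517).

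Isotype share differences with counts in place of FPKM, and with merged exon lengths (chosen after seeing the data), were 3.37 and 3.78 points for Tuba1a, 0.451 and 0.729 for Tubb2a, 3.46 and 3.30 for Tubb4b, and 2.42 and 2.42 for Tubb6. Tubb5 moved to -7.94 with counts. Signs were compared across settings for the 36 tested members named by rule, and 5 uncalled genes among them turned. The signs of other members were not compared. Stmn1 was -0.0127 with library totals only, -0.0280 and -0.0284 with limma and -0.12 to 0.12 without 1 library. Kif4 was -0.0437 with totals, -0.0421 and -0.0430 with limma and -0.00968 to 0.0386 without 1 library. Kif21a was -0.0399 with totals, -0.0372 and -0.0389 with limma and -0.00888 to 0.0595 without 1 library. Kif3a ran from -0.0813 to 0.0522 and Mapt from -0.45 to 0.12 without 1 library. The cause was not tested. Depth limits the folds of Kifc2 (71 counts with fenofibrate and 18 in control) and Tubb2b (131 with fenofibrate and 71 in control).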
